A study of Mus musculus with 8 samples.

Results

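The 10 genes of developing skeletal muscle described here, of 55385 genes in the files, were followed in whole lungs of C57BL/6 mouse fetuses collected at E18.5. They are Myh3, Myh8, Acta1, Tnnt3, Myog, Ckm, Myl1, Mylpf, Tnni2 and Actn3, and they were matched by symbol to the gene identifiers of the counts. The 4 lungs with tracheal occlusion (TO) came from fetuses whose trachea had been tied shut earlier in gestation, which holds secreted lung fluid in the airways, and they were set beside 4 control lungs. The suture was passed through the wall of the uterus and closed the trachea together with a carotid artery and a jugular vein, and the dams received progesterone to keep the pregnancy. The labels do not say whether controls had sham surgery or whether any animals were pooled. The 10 genes were selected on their levels in these same control and TO libraries, so the difference between the groups is described and not tested here.

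Skeletal muscle fibers form when myoblasts leave the cell cycle and fuse. Myogenin and its relatives bind E-box sequences and switch on sarcomere genes, and fetal fibers first build their thick filaments from embryonic and neonatal myosin heavy chains, which adult fast and slow forms replace after birth. Lung parenchyma holds no skeletal muscle of its own, whereas the diaphragm, the chest wall, the upper esophagus and the neck do, and the pulmonary veins and adjoining atria hold cardiac muscle that expresses some of the same genes. The RNA was from bulk tissue, in which fewer muscle cells and less RNA per cell cannot be told apart.

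The depth of the libraries was very unequal. TO 1 had 270078 read pairs on genes, against a range of 22822261 to 35002061 for the rest. Levels are given in CPM, the counts scaled to the depth of each library with its TMM factor, and 1 read pair in TO 1 stood for 3.43 CPM. Values of the 10 genes in TO 1 rest on 1 to 248 read pairs each. Levels of the lung list (7 genes, led by the surfactant gene Sftpc) summed to 5909 CPM in TO 1 and to 7745 to 16895 CPM elsewhere. Fold changes and medians between the groups are therefore given with and without TO 1.

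The 10 genes lie at several places in the genome (GRCm38 coordinates). Myh3 (chr11:67078300-67102291) and Myh8 (chr11:67277124-67308634) are on the plus strand of 1 myosin heavy chain cluster, which also holds the adult forms Myh2, Myh1 and Myh4 and the extraocular form Myh13. Tnni2 (chr7:142441808-142444410) and Tnnt3 (chr7:142498836-142516009) are close neighbors. Acta1 is at chr8:123891769-123894751, Actn3 at chr19:4861216-4877909, Myl1 at chr1:66924295-66945404, Myog at chr1:134289989-134292548, Mylpf at chr7:127208890-127214298 and Ckm at chr7:19404776-19422841. Exons of 9 of the 10 genes share no base with another annotated gene. The exception is Ckm, whose exons are overlapped over 15.5% of their bases by the antisense gene A930016O22Rik.

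Upstream sequence in RefSeq (GRCm38.p6) was at hand for 7 of the 10 genes, and Tnnt3, Tnni2 and Actn3 were not matched. The 250 bases before the RefSeq start are shown for the myogenic regulator Myog, for both myosin heavy chains that the results turn on, and for the skeletal actin Acta1. Capitals mark the motifs that were searched for on both strands, namely the E-box (CANNTG), a TATA motif (TATAAA), the MEF2 motif and the CArG box. The MEF2 motif was CTAWWWWTAR or YTAWWWWTAG and the CArG box CCWWWWWWGG, where W is A or T, R is A or G and Y is C or T. Sites that depart from these letters, such as ctatatttat in the Myog window, were left unmarked.
Myog (chr1:134289754-134290003, plus strand): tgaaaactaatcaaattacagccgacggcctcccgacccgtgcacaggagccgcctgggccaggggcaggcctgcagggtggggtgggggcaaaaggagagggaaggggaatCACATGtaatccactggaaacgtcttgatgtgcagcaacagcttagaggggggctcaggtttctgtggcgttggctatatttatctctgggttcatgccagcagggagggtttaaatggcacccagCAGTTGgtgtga
Myh3 (chr11:67078050-67078299, plus strand): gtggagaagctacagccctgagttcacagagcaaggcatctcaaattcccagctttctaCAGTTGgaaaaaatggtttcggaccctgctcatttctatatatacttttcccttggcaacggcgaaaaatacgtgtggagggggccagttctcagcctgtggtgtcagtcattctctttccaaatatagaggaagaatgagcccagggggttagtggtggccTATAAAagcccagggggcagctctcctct
Myh8 (chr11:67276874-67277123, plus strand): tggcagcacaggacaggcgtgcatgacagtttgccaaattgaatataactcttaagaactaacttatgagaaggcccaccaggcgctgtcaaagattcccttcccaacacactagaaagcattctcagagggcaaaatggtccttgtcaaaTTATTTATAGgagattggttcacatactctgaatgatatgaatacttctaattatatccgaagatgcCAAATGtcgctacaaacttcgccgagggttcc
Acta1 (chr8:123894776-123895025, minus strand): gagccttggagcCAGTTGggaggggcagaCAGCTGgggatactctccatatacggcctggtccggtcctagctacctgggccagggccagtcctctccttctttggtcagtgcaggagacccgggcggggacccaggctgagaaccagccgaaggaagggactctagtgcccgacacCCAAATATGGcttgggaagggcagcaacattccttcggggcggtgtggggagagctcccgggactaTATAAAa

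All 7 windows held at least 1 CANNTG, as did 66.2% of all 32851 windows of the same length. An E-box with the central bases of the form CAGCTG, counted within the matches above, was in 4 of the 7 (Acta1, Ckm, Myl1 and Mylpf) and in 13.0% of all windows. TATAAA or its reverse complement was in 4 of 7 (Myh3, Myh8, Acta1 and Myl1) and in 12.4% of all. In Myh3 it began 29 bases before the start, and in Myh8 it lay within a MEF2 match that began 99 bases before the start. The MEF2 motif as spelled above was in Myh8 alone of the 7 and in 1.69% of all windows, and other forms of the site were not searched for. A CArG box, the motif bound by serum response factor, began 73 bases before the Acta1 start and was in 1.47% of all windows. These matches are a description of the letters in the windows only.

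Myh3 and Myh8, the embryonic and neonatal myosin heavy chains, were low in 3 of the 4 controls. The level of Myh3 was 29.7, 0.42, 1.17 and 7.68 CPM in control 1 to control 4, and 488, 27.8, 20.4 and 53.1 CPM in TO 1 to TO 4. Control 1 thus stood at the level of the TO lungs and above both TO 2 and TO 3, while the other 3 controls were below every TO lung. For Myh8 the 4 controls gave 32.9, 1.01, 6.78 and 9.22 CPM and the 4 TO lungs 852, 44.2, 21.2 and 40.2 CPM. Here too control 1 was above TO 3, and TO 1 was far above all other lungs. The highest control was 70.2 times the lowest for Myh3 and 32.6 times the lowest for Myh8.

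**Figure D1:**
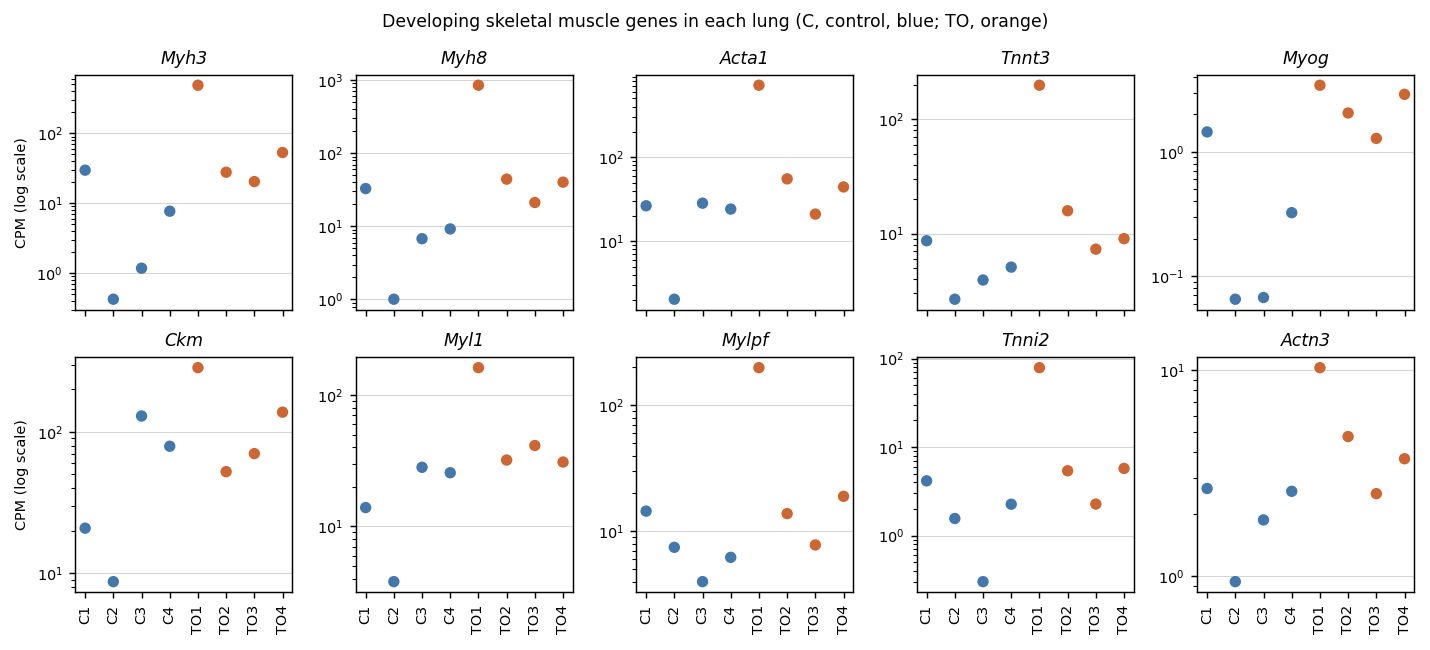
Level of each of the 10 genes (CPM, log axis) in control 1 to control 4 (blue) and TO 1 to TO 4 (orange), 1 point per lung. TO 1 is the highest point in all 10 panels, and the groups do not overlap for Myl1.

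Acta1, the actin of skeletal thin filaments, did not separate the groups. Its level was 26.4, 2.05, 28.4 and 24.2 CPM in control 1 to control 4, and 718, 55.3, 21.1 and 44.3 CPM in TO 1 to TO 4. TO 3 was below 3 of the 4 controls, and control 2 was low by a wide margin.

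The fast troponins regulate contraction on the thin filament. Tnnt3, fast troponin T, was at 8.67, 2.67, 3.93 and 5.09 CPM in the controls and at 199, 15.9, 7.31 and 9.04 CPM in the TO lungs, with only control 1 and TO 3 out of order. Tnni2, the inhibitory subunit of fast fibers, was at 4.16, 1.56, 0.30 and 2.26 CPM in the controls and at 79.0, 5.41, 2.27 and 5.74 CPM in the TO lungs. TO 3 was below control 1 and close to control 4.

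The 2 myosin light chain genes differed from each other. Myl1, the alkali light chain of fast fibers, was at 13.9, 3.80, 28.2 and 25.6 CPM in the controls and at 161, 32.0, 41.3 and 30.9 CPM in the TO lungs. It was the only 1 of the 10 genes with every TO lung above every control, and the gap between control 3 and TO 4 was small. Mylpf, the regulatory light chain of fast fibers, was at 14.5, 7.48, 3.99 and 6.23 CPM in the controls and at 199, 13.9, 7.81 and 19.0 CPM in the TO lungs. Control 1 was above TO 2 and TO 3. Non-overlap in this direction was found for 0.714% of the 22545 genes tested with all 8 lungs and for 2.26% of 22539 genes without TO 1. In the 6 lungs without TO 1 and control 3 it was found for 5.06% of 21859 genes, and Myl1 was the only 1 of the 10 among them each time.

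Actn3, the alpha-actinin of fast fiber Z-discs, was at 2.67, 0.94, 1.88 and 2.59 CPM in the controls and at 10.3, 4.77, 2.52 and 3.72 CPM in the TO lungs. The TO 1 value is 3 read pairs, and TO 3 was below control 1 and control 4. Ckm, the creatine kinase of muscle, had levels of 20.8, 8.72, 130 and 79.2 CPM in the controls and of 285, 52.3, 70.2 and 138 CPM in the TO lungs. Control 3 was above TO 2 and TO 3, and control 4 was as well.

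Myog, the transcription factor myogenin that drives myoblast differentiation, had few reads in any lung. Control 1 to control 4 gave 1.44, 0.07, 0.07 and 0.32 CPM, of which the pair of lowest values is 2 read pairs each. The TO lungs gave 3.43, 2.05, 1.28 and 2.90 CPM, with a single read pair behind the first. Only control 1 and TO 3 were out of order.

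Compared per length of the longest coding transcript (CPM per kb), Mylpf was the most abundant of the 10 in control 1 and control 2, Ckm in control 3, control 4 and TO 4, Acta1 in TO 1 and TO 2, and Myl1 in TO 3. On that scale Myl1 was at 26.1 and Acta1 at 19.6 in control 3, below Ckm at 47.3, while in control 1 Mylpf was at 18.9 and Acta1 at 18.3. Actn3 was the least abundant in control 1 and TO 4, and Myog in the other 6 lungs. The place of Ckm depends on the column, since its count leaves out reads where an antisense gene overlaps it. By the sum of the strand columns, Ckm was above Acta1 in TO 2 and above Myl1 in TO 3.

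With all 8 lungs the fitted log2 fold change between TO and control ranged from 1.03 (Ckm) to 3.98 (Myh8), with a median of 2.42 over the 10 genes. Over all 22545 genes the median was -0.02. Myh8 was at 3.98 ± 1.29 (SE, 4 against 4 lungs), Myh3 at 3.53 ± 1.32, Acta1 at 3.06 ± 1.10 and Tnnt3 at 2.77 ± 0.998. Without TO 1 the same fit gave 1.50 for Myh8, 1.80 for Myh3, 0.99 for Acta1 and 1.08 for Tnnt3, and the median of the 10 fell to 1.04. Myog moved least, from 2.21 to 2.15, and became the gene with the highest fold change. Log2 fold changes of Ckm (0.54) and Mylpf (0.76) were then the lowest. Control 1 pulled the other way. Without it the log2 fold change was 5.20 for Myh3, 5.13 for Myh8 and 3.83 for Myog. That of Ckm was 0.66 without control 2 and 1.71 without control 3, and that of Tnni2 was 3.24 without TO 3. All 10 genes were higher in TO on average with and without TO 1, as were 46.8% and 48.0% of all genes tested. A log2 fold change of 1 or more was reached by 10 of 10 genes with TO 1 (6.33% of all genes) and by 5 of 10 without it (5.60%). These shares are printed as background, since the choice of the 10 genes used this contrast.

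**Figure D2:**
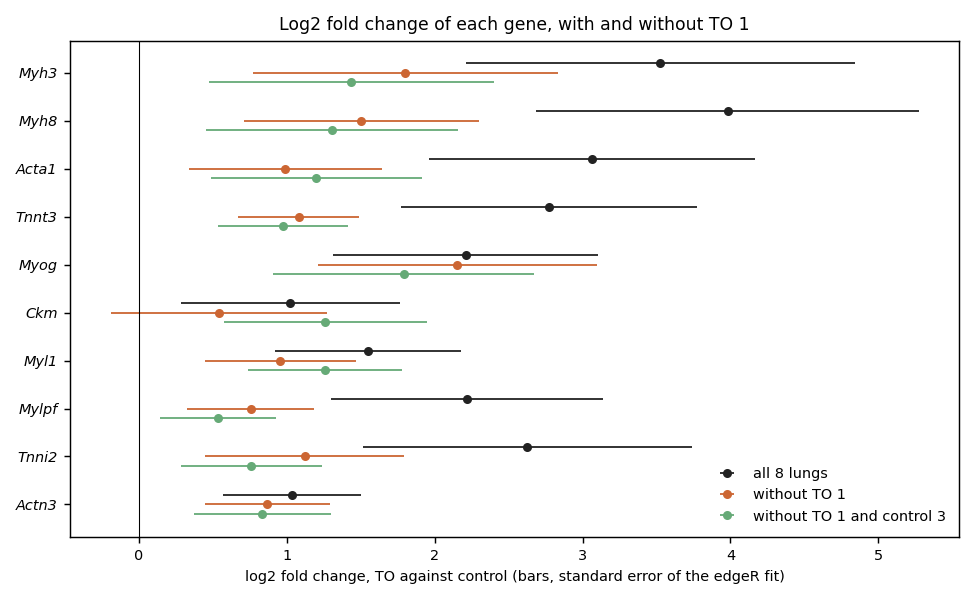
Log2 fold change between TO and control lungs of each gene with its standard error (edgeR), for all 8 lungs (black), without TO 1 (orange) and without TO 1 and control 3 (green). The points of all 8 lungs lie farthest right for 9 of the 10 genes, and those of Ckm lie farthest right without TO 1 and control 3.

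The edgeR quasi-likelihood test across all genes called 0 of 22545 genes (0% at a Benjamini-Hochberg adjusted p under 0.1), and its unadjusted p was under 0.05 for 530 genes (2.35%), of which 323 (1.43% of all tested) were higher in TO. The same threshold in DESeq2 was passed by 7 genes (0.031%) and in limma-voom by 0 (0%).

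The digits in the deposited specimen names are shared by some libraries, and what they stand for was not given. Control 1, control 4, TO 1 and TO 4 share one set of digits, and all 10 genes were higher in both TO lungs than in both controls of that set. TO 2 was above control 2, which shares its digits, for 10 of 10 genes. TO 3 was above control 3 for 8 of 10, and lower for Acta1 and Ckm. The median log2 difference of the 10 genes was 2.67, 2.81 and 0.92 in these 3 sets. Without TO 1 the first of these was 0.94, and TO 4 alone was above both controls for all 10 genes. The sets hold 1 or 2 lungs of each group, and no test was made within them.

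The 10 genes did not move as 1 block among the control lungs. Between control 1 and control 3 the ratio of levels was 25.3 for Myh3, 21.5 for Myog and 13.8 for Tnni2, with 95% counting intervals of 18.0 to 36.6, 5.50 to 185 and 6.95 to 31.0. Myh8, Mylpf and Tnnt3 were also higher in control 1, by 4.85, 3.63 and 2.21 times. Acta1 was level at 0.93 (interval 0.84 to 1.03), and Actn3 at 1.42 (0.97 to 2.08). Myl1 and Ckm were lower in control 1, at ratios of 0.49 and 0.16. The ratio of Ckm was near those of the atrial myosin Myh6 (0.16), the cardiac actin Actc1 (0.13), the cardiac troponin Tnni3 (0.19) and Tnni1 (0.16), the slow troponin that fetal heart also expresses. It was not near that of every cardiac gene, since the atrial marker Myl7 was at 0.24 and the ventricular marker Myl2 at 0.008. These intervals cover counting error only, and they take read pairs as independent draws although the reads carry no molecular identifiers.

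**Figure D3:**
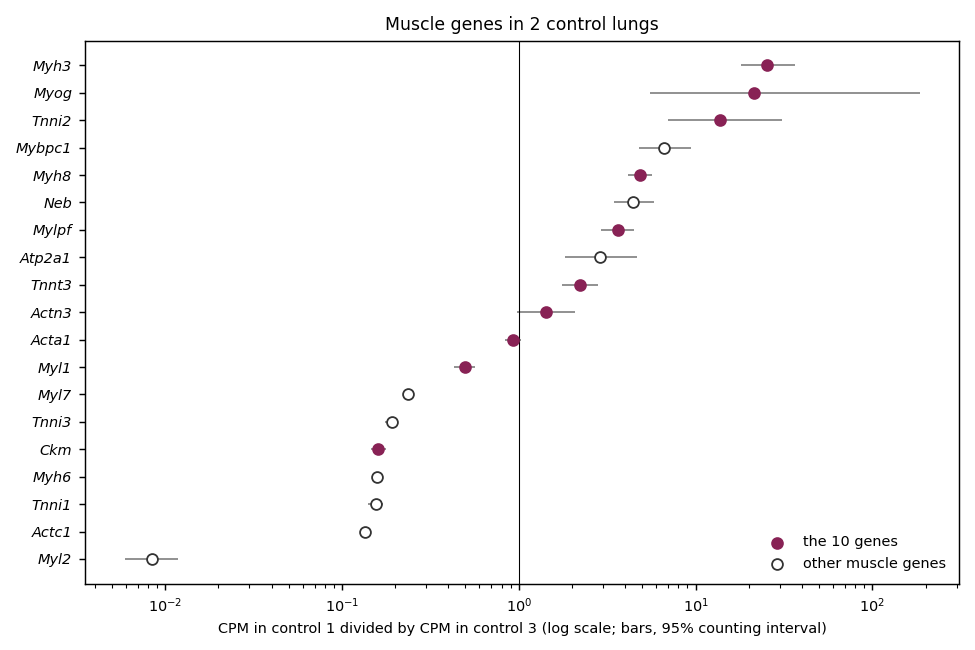
Ratio of the level in control 1 to that in control 3 (log axis, bars are 95% counting intervals) for the 10 genes (filled) and 9 other muscle genes (open). Myh3 is at 25.3 and Ckm at 0.16, beside Myh6, Actc1, Tnni3 and Tnni1. Of the other cardiac genes, Myl7 is at 0.24 and Myl2 at 0.008.

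TO 1 and TO 4 also differed in make-up. Levels in TO 1 were 22.03 times those of TO 4 for Tnnt3, 21.2 times for Myh8, 16.2 times for Acta1 and 9.18 times for Myh3, but 2.07 times for Ckm and 1.18 times for Myog, the latter from a single read pair. Myh6 was at a ratio of 0.99 between the same lungs. Of 16003 genes with a mean of at least 1 CPM, 1.74% had 10 or more times the median of the other lungs in TO 1, and 6 of the 10 genes were among them.

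Shares within a library do not depend on its scaling. Myh3 made up 47.4%, 29.5%, 14.8% and 45.5% of the read pairs on Myh3 and Myh8 together in control 1 to control 4, and 36.4%, 38.6%, 49.0% and 56.9% in TO 1 to TO 4. Exact 95% binomial intervals ran from 16.8% to 45.2% in control 2, which had 44 such read pairs, and from 31.6% to 41.4% in TO 1. Those of control 2 fell unevenly, with 4 in the first strand column and 40 in the second. The Myh3 share was 100% in the first and 22.5% in the second. The interval takes read pairs as independent draws, which such a split puts in doubt. The groups overlapped, and the lengths of both transcripts are nearly the same. Of all read pairs on the 6 heavy chains of the cluster, Myh3 and Myh8 held 99.7%, 95.4%, 94.995% and 98.0% in TO 1 to TO 4, and 97.7%, 26.8%, 78.2% and 88.7% in control 1 to control 4. Control 2 had 44 read pairs on Myh3 and Myh8, 56 on Myh13, 44 on the adult fast chain Myh4, 13 on Myh1 and 7 on Myh2. Myh4 had 0 in the other 7 libraries, and without it the share in control 2 was 36.7%. With single-strand columns the share of the 6 chains in control 2 was 6.15% and 38.8%.

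Against the cardiac heavy chains, Myh3 and Myh8 held 14.4%, 0.53%, 0.30% and 0.83% of the read pairs on Myh3, Myh8, Myh6 and Myh7 in the controls, and 30.4%, 5.84%, 2.30% and 3.19% in the TO lungs. Control 1 was above TO 2, TO 3 and TO 4. Part of Myh7 is overlapped by antisense genes and its read pairs there were left out of the count, so with single-strand columns the share in TO 1 was 23.0% and 20.2%. In control 2 the share with those columns was 0.07% from 4 read pairs and 0.63% from 40. Acta1 held 12.5%, 1.88%, 2.02% and 2.52% of the read pairs on both striated actins in the controls and 27.5%, 9.64%, 2.64% and 2.92% in the TO lungs. Tnnt3 held 9.17%, 3.65%, 0.60% and 0.81% of troponin T read pairs in the controls and 11.6%, 4.53%, 1.49% and 0.86% in the TO lungs. Tnni2 held 8.27%, 3.71%, 0.11% and 0.83% of troponin I read pairs in the controls and 9.47%, 3.54%, 1.18% and 1.21% in the TO lungs. For actin, troponin T and troponin I alike, most read pairs in each lung fell on genes that heart or slow fibers express.

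**Figure D4:**
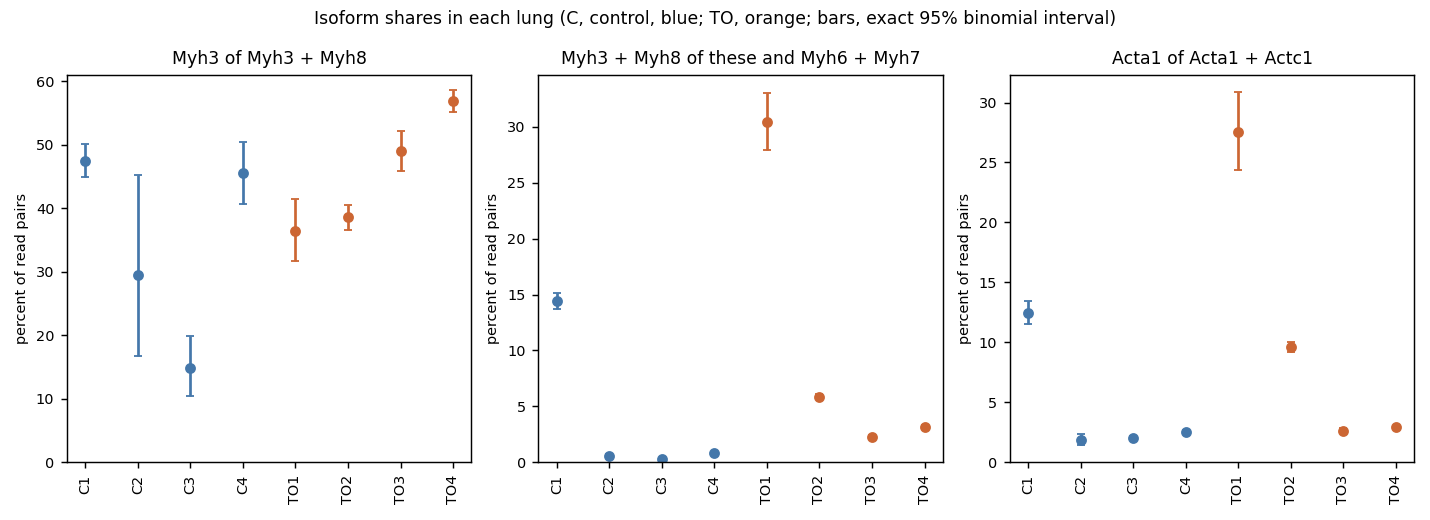
Percent of read pairs, per lung with exact 95% binomial intervals, that fell on Myh3 among Myh3 and Myh8, on both among these and the cardiac heavy chains, and on Acta1 among the striated actins. TO 1 (30.4% and 27.5%) and control 1 (14.4% and 12.5%) have the highest shares in the middle and right panels.

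A further 45 skeletal muscle genes with other roles were examined, of which 35 had enough reads to be tested. Of these 35, 34 were higher in TO on average with a median log2 fold change of 1.25 (0.84 without TO 1), and 0 were called. An unadjusted p under 0.05, which 1.43% of all genes had with a higher level in TO, was found for 9 of the 35, all higher in TO, for 4 without TO 1 and for 4 without control 2. In the troponin and nebulin group 6 of 6 tested genes were higher. Neb, the ruler of the thin filament, was at 12.0, 6.70, 2.69 and 7.24 CPM in the controls and 148, 14.9, 12.0 and 16.8 CPM in the TO lungs. Mybpc1, the slow myosin binding protein C, was lowest in control 2 and highest in TO 1 like Myh3, at 9.63, 0.13, 1.44 and 2.75 CPM in the controls and 168, 11.6, 4.21 and 10.7 CPM in the TO lungs. Log2 fold changes of the 4 myosin binding genes had a median of 1.84 (1.08 without TO 1). Those of 2 of them changed with the setting. Mybpc2, of fast fibers, was at 0.14 ± 0.38 and below 0 with either strand column, with their sum, without control 2 and without TO 3. Mybph was at 2.44 but at 0.13 with the sum of the strand columns. Exons of Adora1 on the opposite strand overlap 49.9% of the Mybph exon bases. In control 3 the Mybph count was 29 and the sum was 834, and reads in that sum cannot be told apart from Adora1 reads.

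Genes of calcium handling and excitation were higher in TO on average for 8 of 8, with a median log2 fold change of 1.75 (1.07 without TO 1). Atp2a1, the calcium pump of fast fibers, was at 2.71, 0.72, 0.94 and 1.82 CPM in the controls and 51.5, 5.78, 2.11 and 5.15 CPM in the TO lungs. Ryr1, the calcium release channel, was at 3.24, 0.59, 2.42 and 1.50 CPM and at 58.4, 3.21, 4.50 and 4.55 CPM, with TO 2 just below control 1. Of 7 genes of the neuromuscular junction 5 were tested and 4 were higher, and Chrnb1, the most abundant, was near 0 (log2 fold change -0.06 ± 0.20, and above 0 with the second strand column or without TO 4). Chrng, the fetal acetylcholine receptor subunit, was at 0.31, 0, 0 and 0.16 CPM in the controls and at 6.87, 0.61, 0 and 0.57 CPM in the TO lungs. Z-disc genes (3 of 3 tested) and enzymes of energy metabolism (4 of 4) were higher as well, the latter by a median of 0.59 on the log2 scale (0.36 without TO 1).

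Of the other heavy chains in the cluster, Myh4 was at 1.43 CPM in control 2, above Myh3 and Myh8 in that lung, and at 0 elsewhere. Myh1 was at 0 to 0.54 CPM and Myh2 at 0 to 0.23 CPM over the 8 lungs, and Myh13 at 1.23 to 3.43 CPM. Among 7 genes of myogenic identity and fusion, 3 were tested and all were higher in TO. Mymk, the membrane protein that fuses myoblasts, was at 0.44, 0.10, 0.27 and 0.32 CPM in the controls and 10.3, 1.19, 1.16 and 1.39 CPM in the TO lungs, so every TO lung was above every control. Its TO 1 value is 3 read pairs. Myod1, a determination factor, was at 0.35, 0.13, 0 and 0 CPM and at 0, 0.52, 1.12 and 1.73 CPM, and had no read in TO 1. A count of 0 in TO 1 allows up to 10.3 CPM.

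The troponin C gene of fast fibers, Tnnc2, is overlapped over 74.0% of its exon bases by Ube2c on the opposite strand, and its deposited counts for both strands together were 10 in all libraries. The sum of the columns of each strand gave 645 read pairs, at 3.06, 0.91, 1.07 and 1.86 CPM in the controls and 85.8, 7.20, 2.07 and 4.12 CPM in the TO lungs. Library preparation did not mark strand, so those reads cannot be told apart from Ube2c reads. For Ckm the same sum was 2.08 times the count. It gave 43.7, 19.6, 259 and 179 CPM in the controls and 632, 110, 142 and 285 CPM in the TO lungs, in the same order of lungs as the counts, and a log2 fold change of 1.13. For the other 9 genes the sum stayed within 1% of the count.

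Striated muscle genes that heart expresses as well numbered 20, all of them tested. All 20 were higher in TO on average with a median log2 fold change of 0.96 (0.74 without TO 1), 0 were called and 0 had an unadjusted p under 0.05. Actc1 was at 185, 107, 1375 and 936 CPM in the controls and 1888, 518, 777 and 1471 CPM in the TO lungs. Slow troponin I, Tnni1, was at 19.1, 17.4, 123 and 142 CPM and at 433, 68.4, 73.1 and 263 CPM. Control 1 and control 2 were the lowest lungs for both genes, unlike for Myh3, where control 1 was high.

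Markers of other tissues moved with particular lungs. The stratified epithelium list (8 genes, led by the esophageal keratin Krt4) summed to 293, 323 and 285 CPM in control 1, TO 1 and TO 4, and to 6.70 to 10.3 CPM in the other 5 lungs, with 0 of its 8 genes at 0 in those 3 lungs. These same 3 lungs were the highest for Myh3 and for Mylpf, whereas Myh8, Tnnt3 and Acta1 were higher in TO 2 than in control 1 or TO 4. The thymocyte list (6 genes) summed to 227 CPM in TO 1 and at most 13.2 CPM elsewhere, with Rag1 at 161 CPM in TO 1 from 47 read pairs. Ventricular markers (4 genes, led by Myl2) summed to 346, 284, 1322 and 846 CPM in control 3, control 4, TO 1 and TO 4 and to 4.07 to 46.6 CPM in the others. Atrial markers (6 genes) were at 404 and 245 CPM in control 1 and control 2 and at 1511 to 2593 CPM in the other 6 lungs. Among them, an antisense gene overlaps 61.5% of the Nppa exon bases. Nppa in control 3 was at 77.4 CPM by count and at 885 CPM by the sum of the strand columns.

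Smooth muscle markers (8 genes) ranged from 668 to 1013 CPM in the controls and from 546 to 1087 CPM in the TO lungs. That sum all but leaves out Tagln, since opposite-strand genes overlap 67.9% of its exon bases. Tagln was at 0 to 0.69 CPM by count and at 85.8 to 281 CPM by the sum of the strand columns. Tendon markers (4 genes) reached 54.9 CPM in TO 1 and 16.3 to 41.7 CPM elsewhere. Of the TO 1 sum, Thbs4 held 51.5 CPM from 15 read pairs. Scx was at 3.43 CPM there from 1 read pair, and at 3.26 to 17.6 CPM elsewhere. Mkx had no read in TO 1, where 0 allows up to 10.3 CPM, so the list as a whole was not shown to be high in that lung. Brown fat markers (6 genes) were at 1.69 to 8.07 CPM, with the defining gene Ucp1 at 0 in all 8 lungs. Cartilage markers (8 genes) were at 52.7 to 84.8 CPM in the controls and 58.1 to 129 CPM in the TO lungs, Schwann cell markers (4 genes) at 47.1 to 68.7 CPM over all lungs, and pan-cardiac markers (6 genes) at 91.6 to 1507 CPM. Opposite-strand genes overlap 64.7% of the exon bases of Pln, a pan-cardiac gene, so its count leaves reads out too. The part of the tissues listed here in the levels of the 10 genes was not tested.

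**Figure D5:**
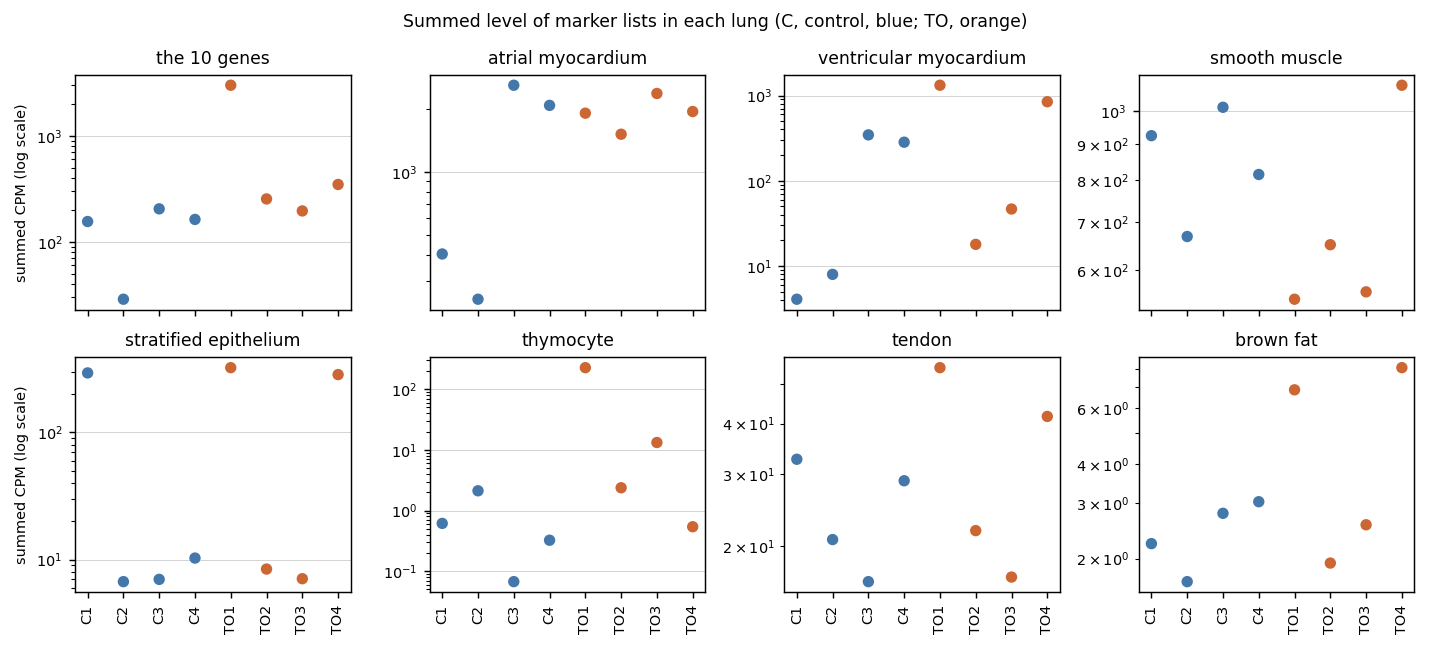
Summed level (CPM, log axes) of the 10 genes and of 7 marker lists in each lung, controls in blue and TO lungs in orange. The stratified epithelium list is high in control 1, TO 1 and TO 4, and the thymocyte list is highest in TO 1.

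Outside the 10 genes, the 8 most alike over the 8 lungs were found by Pearson's correlation with the mean log2 CPM of the 10, among tested genes of at least 1 CPM. They were Mybpc1 (r = 0.98, Spearman's rho 0.98), Vps37b (0.98, 0.90), Atp2a1 (0.98, 0.98), AW551984 (0.97, 0.93), Mymk (0.97, 0.98), Arhgap36 (0.97, 0.90), Batf3 (0.97, 0.98) and Pdxk (0.97, 0.79). Mybpc1, Atp2a1 and Mymk are skeletal muscle genes. Mymk reached 1 CPM on average only through TO 1, at 10.3 CPM from 3 read pairs, and its mean over the other lungs was below that. Without TO 1 and control 2, the lungs farthest from the median of that mean, r ranged from 0.75 (Pdxk) to 0.98 (Atp2a1), and without TO 1 alone from 0.92 (Pdxk) to 0.98 (Mybpc1). Among the 10 themselves the correlation with their own mean ranged from 0.71 for Ckm to 0.99 for Myh8, and without the same 2 lungs it was -0.20 for Ckm and 0.12 for Myl1 (0.55 and 0.76 without TO 1 alone). These values came from the top of a ranking over the same libraries and carry no test.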

How the data were processed

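The deposited libraries, per the labels, are from 4 control and 4 TO lungs, whereas the study describes 3 of each. Per its methods, whole-lung RNA went into NexteraXT libraries read as pairs of 150 bp. STAR alignment to GRCm38 (mm10) was run by the authors, and the deposited files hold their raw counts per gene, neither filtered nor normalized, with 1 column for both strands and 1 for each strand. The STAR version and annotation are not given in the sources used here, and the study used DESeq2. Of 55385 gene IDs, 54487 are identical to GENCODE M21, from which symbols, lengths and GRCm38 coordinates were taken.

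The column for both strands was used. Reads listed under no gene stayed out of the library sizes. They were the unmapped (3.31% to 3.82% of read pairs), those with several alignments (3.76% to 4.28%), those outside genes (9.64% to 14.9%) and those on more than 1 gene (at most 5.74%). A gene was tested if 3 libraries or more had at least 5 reads. The fit used TMM scaling and the edgeR 4.0.16 quasi-likelihood test in R 4.3.3, and a gene was called at a Benjamini-Hochberg adjusted p under 0.1. Standard errors printed for edgeR are the absolute log2 fold change divided by the square root of the F statistic of its test. DESeq2 1.42.0 and limma 3.58.1 (voom) were alternatives. Printed CPM values are counts scaled by the counts on genes of each library times its TMM factor, and log2 CPM used a prior count of 2. Figures were drawn in Python 3.11.15 with matplotlib 3.10.9. The scripts were tested on simulated data. Nothing says that lungs came from separate litters, so p-values measure the spread between these samples only.

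The members and gene lists were chosen with earlier results of these data known. Named genes are the 10 members, the most abundant genes of each list, the myosin heavy chains and troponins of the lists, and the 8 genes most alike in pattern. Tnnc2, Ube2c, A930016O22Rik, Adora1 and Ucp1 fall outside that rule and were named after the values were seen. Alternatives were each library left out, 6 libraries, blocks, other scaling, filters and columns. The sum of the strand columns was chosen after seeing the data.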

Additional observations from a re-analysis of the deposited data

Results flagged for a closer look

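In the group of TO lungs, TO 1 stood apart from the other 3 by Dixon's gap test for 7 of the 10 genes: Myh3 (488 CPM, others 20.4 to 53.1), Myh8 (852 CPM, others 21.2 to 44.2), Acta1 (718 CPM, others 21.1 to 55.3), Tnnt3 (199 CPM, others 7.31 to 15.9), Myl1 (161 CPM, others 30.9 to 41.3), Mylpf (199 CPM, others 7.81 to 19.0) and Tnni2 (79.0 CPM, others 2.27 to 5.74). In the controls, Acta1 was low in control 2 (2.05 CPM, others 24.2 to 28.4). These are 8 of 20 groups looked at. A chance rate of about 1 in 20 holds for independent groups of normally distributed values. Here the same lungs recur for every gene, 7 of the 8 are TO 1, and the genes were selected on these levels. The count is therefore a description and cannot be set against chance. TO 1 had 270078 read pairs on genes, the fewest of the 8 libraries, and the part of its depth in these values was not tested.

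In columns that the comparisons did not use, the sum of both strand columns gave 85.8 CPM for Tnnc2 in TO 1, and 0.91 to 7.20 CPM in the other 7 lungs.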

How the results depend on the processing

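Under 20 other settings, edgeR or another tool called 0 genes except for 7 with DESeq2 and 3 with a replicate block, and all tested members stayed higher in TO under each setting (10, or 8 where 5 reads were required in every library). With each lung left out in turn, the number of genes called stayed at 0, the members higher in TO at 10, and the genes called in the other skeletal and heart-shared lists at 0. The median log2 fold change of the members was 2.42 and ranged from 1.04 (without TO 1) to 3.16 (without control 1). It was 1.23 with the 6 libraries that leave out TO 1 and control 3 and 1.49 with limma-voom. Of the recomputed log2 fold changes, levels and isoform shares of the 10 genes, 47 values moved by more than their spread or interval and 335 did not, and no fold change of the 10 genes changed sign. Among other named muscle genes, the sign turned under 1 or more settings for Chrnb1, Mybpc2, Myh1 (-0.69 with the first strand column), Myl2 (-0.75 with limma-voom) and Nppb.

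Same-numbered control and TO lungs deviated together with correlations of 0.05, 0.13, 0.16 and 0.07, and 6 of 8 libraries correlated best with their own number. Control 1 and TO 4 correlated best with each other instead (0.10), and they share the digits of their specimen names. Same-numbered control and TO lungs share those digits as well. The labels do not say whether numbers or digits pair the lungs, and the main fit used no pairing. The standard error of the Myh3 log2 fold change was 1.32 in that fit, 0.34 with a block for number and 0.66 with a block for digits. With the replicate block 3 of all 22545 genes were called, and with the digits block 0 of 22545. Myh3 and Myh8 were 2 of those 3. The same contrast was used to select them, so these calls are no support for the 10 genes.

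Depth limits TO 1 most: 3 read pairs there are 10.3 CPM, so Myog, Actn3 and Mymk could not be placed precisely in that lung.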
